A study of Homo sapiens with 6 samples.

Results

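The genes described here encode the nuclear subunits of respiratory complexes II, III and IV and of ATP synthase (complex V), together with cytochrome c and the factors that help to build these complexes. Members were taken by gene symbol: names beginning with SDHA, SDHB, SDHC, SDHD, UQCR, UQCC or ATP5, or with COX and a number, and the genes CYC1, CYCS, SURF1, SCO1, SCO2, BCS1L, ATPAF1 and ATPAF2. This gave 72 of the 17911 genes in the deposited table, with 46 subunit genes, 23 assembly factors and 3 others. RNA was sequenced from HL-60, an established human promyelocytic leukaemia line, in 3 libraries of cells given 10 uM amiodarone for 24 h and 3 libraries labelled control. Amiodarone is an antiarrhythmic drug, and the labels do not say whether control cells received a vehicle or whether libraries came from separate cultures. The p-values therefore rest on how far these libraries spread, and that spread may be technical.

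In the inner mitochondrial membrane, complex II passes electrons from succinate to coenzyme Q, complex III passes them on to cytochrome c, and complex IV hands them to oxygen. Complexes III and IV pump protons, and complex V lets protons flow back through its ring of c-subunits to make ATP. Complex II is wholly encoded in the nucleus. Complexes III, IV and V also hold subunits encoded in mitochondrial DNA, for which the table has no row, and their assembly needs factors that insert hemes, copper and iron-sulfur clusters. SIRT3, a deacetylase of the mitochondrial matrix, is named in the title of the series as what amiodarone is meant to activate.

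The deposited values are not counts and behave like reads scaled to transcript length and library size (RPKM). They summed to 568654 to 574483 in the amiodarone libraries and 534486 to 539030 in the control libraries. Of the 17911 genes, 11445 reached 1 in 3 or more libraries and were tested with limma on log2(value + 1). Across genes, log2 values correlated at 0.9975 to 0.9982 between libraries within a group, and at 0.959 to 0.96 between an amiodarone and a control library. Of 7 promyelocyte marker genes, 7 were at 1 or more in every library, with a summed value of 3120.2 to 3177.9 after amiodarone and 6949.3 to 7070.5 in controls. MPO, the myeloperoxidase gene, averaged 2610 ± 28.4 after amiodarone and 5960 ± 43.7 in controls (SD, n = 3 each, as for every mean below). Of 8 markers of T cells, B cells, red cells, epithelium and fibroblasts that have a row, 1 was at 1 or more in every library, and their summed value was 2.8 to 3.6 after amiodarone and 3.9 to 4.4 in controls. Of the 7 promyelocyte markers, 5 were lower (MPO, PRTN3, AZU1, CTSG and ELANE), MYB was higher at 124 ± 3.64 after amiodarone and 112 ± 0.873 in controls, and CD33 was not called at 95.5 ± 3.55 after amiodarone and 91.7 ± 2.12 in controls. The part of these marker levels in the results below was not tested. In bulk RNA, fewer cells of a kind and less RNA per cell cannot be told apart.

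Most subunit genes were lower after amiodarone, by less than 1.5-fold in all but ATP5MC1 and SDHA. At an adjusted p under 0.05, 51 of 68 tested members were called, where 78.3% of all tested genes were. 42 members were lower, where 44.8% of all tested genes were, and 9 were higher, where 33.5% of all tested genes were. Among the 9, ATP5MGL passed the filter on its amiodarone libraries alone and had to differ, and it is no support for this count. The groups of libraries did not overlap in 50 of the 68, where 79.3% of all tested genes did not. Among subunit genes and CYCS, 31 of 42 tested were lower (73.8%), 3 were higher and 8 were not called, and the median log2 fold change was -0.19. Among assembly factors, 9 of 23 were lower (39.1%), 5 were higher and 9 were not called, with a median of -0.07. The median over all tested genes was -0.06. At a mean value of 20 or more, the medians were -0.125 over all tested genes, -0.198 over subunit genes and CYCS and 0.027 over assembly factors. Under 20 they were -0.024, 0.186 and -0.103 in that order. The median of the assembly factors was -0.015 without control replicate 2, -0.155 with values scaled to equal sums and -0.035 with values scaled by the median of ratios. No test of the difference between subunits and assembly factors was made.

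Changes past 1.5-fold on the log2(value + 1) scale were rare among members. Called and lower by at least that much were 12.0% of all tested genes and, among the members, the subunit genes ATP5MC1 and SDHA and the assembly factor gene UQCC3. Called and higher by as much were 9.07% of all tested genes and, among the members, UQCRHL, a close copy of UQCRH, besides ATP5MGL. The assembly factors were less abundant: 17 of the 23 had a mean value under 20, against 7 of the 46 subunit genes. At a mean of 20 or more, 30 of 39 tested subunit genes were lower (76.9%) and 1 higher, 1 of 6 assembly factors was lower (16.7%) and 2 higher, and 54.6% of all tested genes at that level were lower. Under 20, 1 of 3 tested subunit genes was lower and 2 higher. At that level 8 of 17 assembly factors were lower (47.1%) and 3 higher, and 40.2% of all tested genes were lower. The 3 subunit genes are UQCRQ, UQCRB and UQCRHL, too few to set against the assembly factors. In the annotation used for exon overlaps, UQCRB and UQCRQ are each 1 exonic block over the whole gene, of 9715 and 1472 bases. UQCRHL may take reads of UQCRH. Whether block length or read assignment put these 3 under 20 was not tested.

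**Figure D1:**
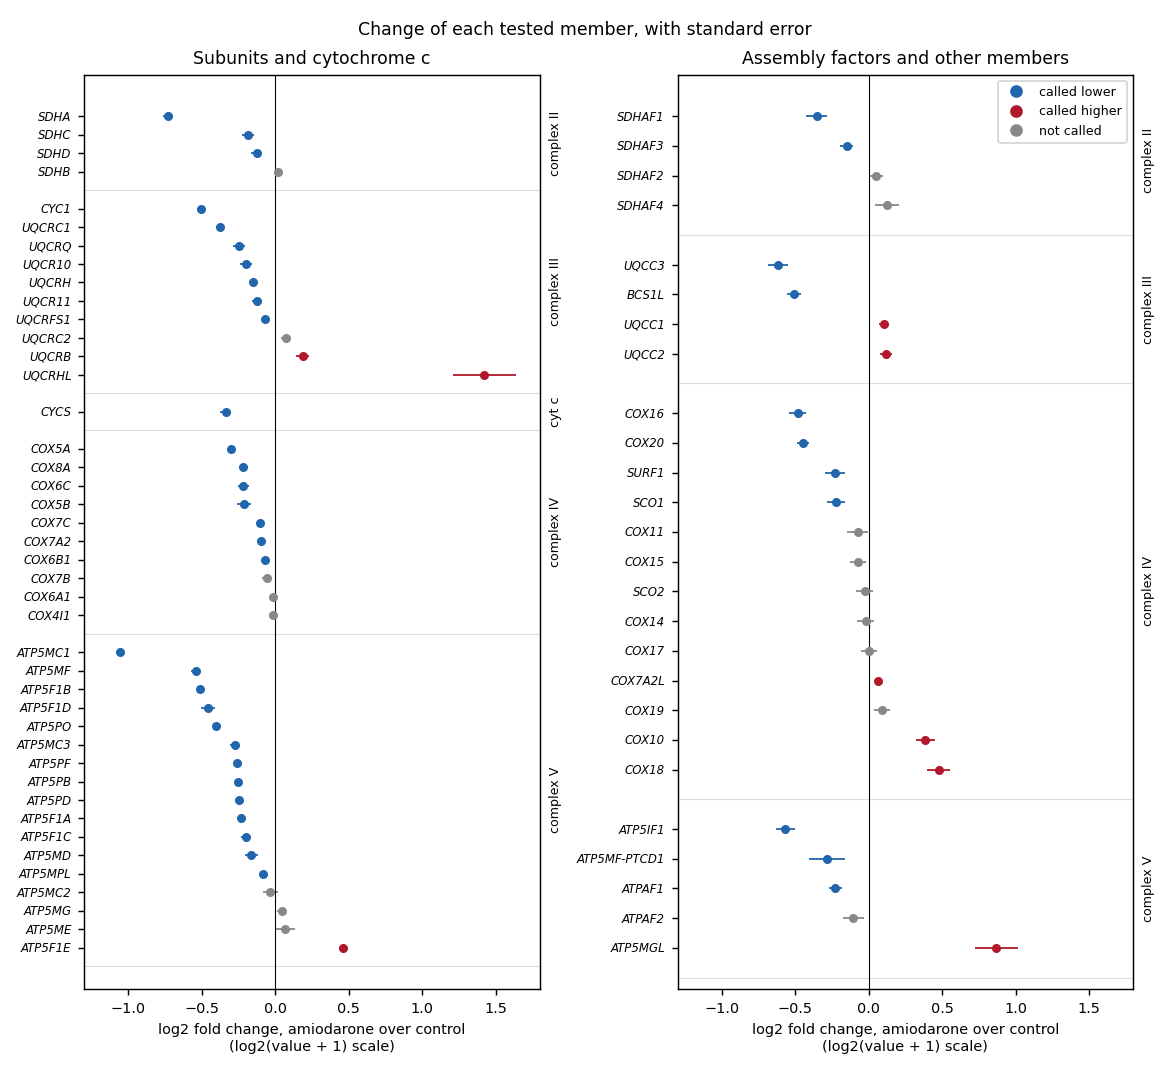
The log2 fold change of amiodarone over control on the log2(value + 1) scale is plotted for 68 tested members, with subunit genes and cytochrome c on the left and assembly factors and other members on the right, ordered within each complex; points are limma estimates, bars are standard errors and colours give the call. Most subunit points lie left of 0, with ATP5MC1 at -1.06 the farthest, and assembly factors lie on both sides.

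The start regions of 5 genes are shown because these genes mark the contrasts within complexes II and V described next. SDHA and ATP5MC1 had the lowest fold changes of the subunit genes, SDHB and ATP5MC2 are their partners that were not called, and ATP5F1E is the subunit gene of complex V that was higher. Each sequence holds the 250 bases before the gene's start in RefSeq (GRCh38.p14), read 5′ to 3′ on the gene's strand. The windows are chr5:218070-218319 (plus strand) for SDHA, chr1:17054033-17054282 (minus strand) for SDHB, chr17:48892537-48892786 (plus strand) for ATP5MC1, chr12:53676084-53676333 (minus strand, the first of 3 listed starts) for ATP5MC2 and chr20:59032336-59032585 (minus strand) for ATP5F1E. Capitals mark GCGCNNGCGC, the core of the motif of the nuclear respiratory factor NRF1, CCGGAA of ETS factors such as GABPA, ATGGCG of YY1, the E-box CACGTG and the CCAAT box, on either strand.
SDHA: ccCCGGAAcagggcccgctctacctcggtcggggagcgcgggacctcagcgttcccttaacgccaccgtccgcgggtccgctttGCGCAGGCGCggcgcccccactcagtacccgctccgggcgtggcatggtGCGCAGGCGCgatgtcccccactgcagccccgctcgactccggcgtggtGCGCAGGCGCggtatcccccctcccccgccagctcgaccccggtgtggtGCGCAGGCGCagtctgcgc
SDHB: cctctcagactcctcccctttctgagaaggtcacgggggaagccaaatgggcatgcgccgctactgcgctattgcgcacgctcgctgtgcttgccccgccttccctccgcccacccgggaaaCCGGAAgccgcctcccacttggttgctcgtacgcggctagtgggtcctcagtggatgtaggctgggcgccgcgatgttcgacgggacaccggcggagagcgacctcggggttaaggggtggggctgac
ATP5MC1: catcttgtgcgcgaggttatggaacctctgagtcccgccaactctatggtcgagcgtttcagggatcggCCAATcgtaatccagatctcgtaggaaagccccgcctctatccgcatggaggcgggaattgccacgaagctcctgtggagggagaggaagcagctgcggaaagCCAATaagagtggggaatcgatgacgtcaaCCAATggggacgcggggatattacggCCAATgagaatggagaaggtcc
ATP5MC2: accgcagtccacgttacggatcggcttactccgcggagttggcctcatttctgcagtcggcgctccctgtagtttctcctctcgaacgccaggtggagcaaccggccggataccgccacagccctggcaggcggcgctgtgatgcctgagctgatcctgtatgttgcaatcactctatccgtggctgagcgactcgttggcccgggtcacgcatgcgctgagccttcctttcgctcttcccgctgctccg
ATP5F1E: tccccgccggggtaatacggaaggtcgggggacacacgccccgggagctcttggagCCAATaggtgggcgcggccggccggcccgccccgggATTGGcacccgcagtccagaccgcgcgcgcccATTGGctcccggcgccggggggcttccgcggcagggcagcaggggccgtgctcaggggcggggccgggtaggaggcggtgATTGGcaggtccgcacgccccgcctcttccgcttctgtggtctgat

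The SDHA window held the NRF1 core 4 times and CCGGAA 1 time, and the SDHB window CCGGAA 1 time. The CCAAT box stood 4 times in the ATP5MC1 window and 4 times in the ATP5F1E window, and the ATP5MC2 window shown held none of the 5 motifs. At the other listed starts of ATP5MC2, windows 2 and 3, extended to 50 bases after the start, each held 1 CCAAT box. Across or just after the start, SDHB also held ATGGCG 1 time and ATP5MC1 the E-box 1 time. The 15 members without a window include ATP5F1B, CYC1, ATP5MF, ATP5F1D and UQCC3, called lower, and UQCRB, UQCRHL and ATP5MGL, called higher. Windows extended to 50 bases after the start were found for 57 of the 72 members, 70 windows in all. Of these, 20 held the NRF1 core (28.6%), against 8.32% of all 35116 windows in the RefSeq table. CCGGAA stood in 36 (51.4%), against 17.2% of all windows, and ATGGCG in 21 (30.0%), against 10.7%. The E-box stood in 6 member windows (8.57%, against 7.26% of all) and the CCAAT box in 25 (35.7%, against 34.6%); these 2 motifs were added after the sequences had been seen. The NRF1 core was in 12 of 41 windows of genes called lower, 4 of 8 of genes called higher and 3 of 18 of genes not called. For CCGGAA these counts were 24 of 41, 2 of 8 and 10 of 18, and for ATGGCG 13 of 41, 3 of 8 and 5 of 18. Some genes have more than 1 window, so these are not counts of genes. Windows 1 and 2 of COX18, a gene called higher, overlap, and both held the NRF1 core. The windows of the whole RefSeq table include those of genes not tested here. Shares over the windows of tested genes alone were not computed. A match in these letters describes the window only and says nothing of binding.

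Of 4 subunit genes of complex II, 3 were lower, where 44.8% of all tested genes were; 4 genes are too few to read against that share. SDHA, the flavoprotein that oxidises succinate, had values of 21.6, 21.03 and 21.2 in the amiodarone libraries, against 36.5, 36.6 and 34.8 in the controls. It averaged 0.593 of the control mean (limma, log2 fold change -0.73, SE 0.034, adjusted p = 8.23e-09). The iron-sulfur subunit gene SDHB, whose protein takes electrons from SDHA, had values of 90.5, 90.1 and 92.2 after amiodarone and 89.6, 89.8 and 90.3 in controls. These ranges overlapped, and SDHB was not called (limma, log2 fold change 0.02, SE 0.024, adjusted p = 0.552); with values scaled to equal sums its log2 fold change was -0.07 and was called. SDHA lies on chromosome 5 at 218241 to 256700 on the plus strand (GENCODE 29, GRCh38), with no exon of another gene over its own, but close pseudogene copies exist elsewhere in the genome and could take part of its reads.

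SDHC and SDHD encode the membrane anchors of complex II, which help to form the coenzyme Q site. SDHC had values of 22.9, 23.1 and 21.7 after amiodarone, against 26.3, 24.8 and 26.3 in controls, and fell to 0.875 of the control mean (limma, log2 fold change -0.18, SE 0.039, adjusted p = 0.00117). SDHD had values of 51.8, 56.8 and 52.4 after amiodarone, against 59.5, 59.00 and 57.4 in controls, and fell to 0.915 of the control mean (limma, log2 fold change -0.13, SE 0.037, adjusted p = 0.00868). For both, each amiodarone library was below each control library. The summed value of the 4 subunit genes was 188 ± 2.26 after amiodarone and 210 ± 1.56 (SD, n = 3 each) in controls.

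Of 4 assembly factors of complex II, 2 were lower and 2 were not called, where 44.8% of all tested genes were lower. SDHAF1, which helps to fit iron-sulfur clusters into SDHB, had values of 16.7, 13.9 and 13.3 after amiodarone and 18.8, 18.2 and 19.7 in controls (limma, log2 fold change -0.35, SE 0.07, adjusted p = 0.000757). SDHAF3, which acts with SDHAF1, had values of 8.60, 8.58 and 8.57 after amiodarone and 9.29, 9.62 and 9.98 in controls (limma, log2 fold change -0.15, SE 0.045, adjusted p = 0.0101). Neither showed an overlap between the groups. SDHAF2, needed to attach the flavin of SDHA, had 21.5, 23.5 and 22.9 after amiodarone and 20.8, 22.2 and 22.5 in controls; it shares 30.5% of its exonic bases with AP003108.2. SDHAF4, which binds SDHA before it meets SDHB, had 6.66, 6.10 and 5.61 after amiodarone and 5.02, 5.22 and 6.39 in controls. Neither of the 2 was called (adjusted p = 0.307 and 0.183, limma), although SDHAF4 was called higher without control replicate 3 (log2 fold change 0.217, adjusted p = 0.0196).

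**Figure D2:**
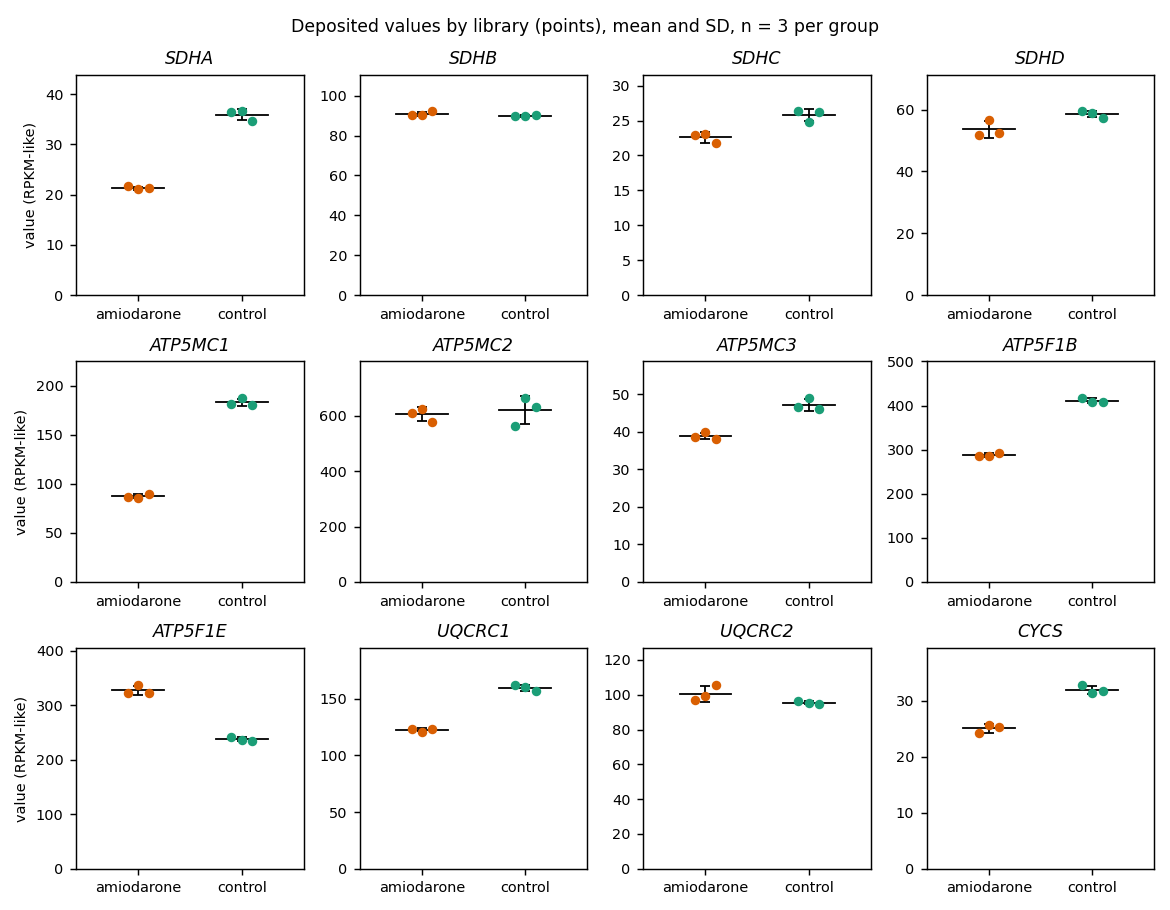
Deposited RPKM-like values of 12 member genes are plotted, 1 panel per gene, with amiodarone libraries left of control libraries; points are libraries, lines and bars the mean and SD (n = 3 per group), and each axis starts at 0. SDHA, ATP5MC1, ATP5F1B, UQCRC1 and CYCS sit lower after amiodarone, ATP5F1E sits higher, and SDHB and ATP5MC2 overlap.

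In complex III, 7 of 10 tested subunit genes were lower and 2 were higher, where 44.8% of all tested genes were lower and 33.5% higher. CYC1, which encodes the heme protein cytochrome c1, had values of 65.3, 63.5 and 64.6 after amiodarone, against 89.8, 94.9 and 90.7 in controls (limma, log2 fold change -0.50, SE 0.029, adjusted p = 4.49e-08). UQCRC1, a core protein of the matrix arm, had values of 123, 121 and 124 after amiodarone, against 162, 160.2 and 156 in controls (limma, log2 fold change -0.38, SE 0.024, adjusted p = 1.13e-07). The other core protein gene, UQCRC2, had 96.9, 99.2 and 106 after amiodarone and 96.3, 95.3 and 94.5 in controls. Its groups did not overlap, with the amiodarone libraries higher, but it just missed the threshold (limma, log2 fold change 0.07, SE 0.033, adjusted p = 0.055); it was called with values scaled by the median of ratios (log2 fold change 0.11, adjusted p = 0.00696), with a minimum value of 5 (adjusted p = 0.0498) and without amiodarone replicate 1 (adjusted p = 0.0158), and scaling to equal sums turned its sign to -0.015.

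The Rieske iron-sulfur protein gene UQCRFS1 was near its control level, with 93.4, 90.7 and 92.4 after amiodarone and 99.3, 95.9 and 95.2 in controls. It was called lower (limma, log2 fold change -0.07, SE 0.027, adjusted p = 0.0335), but the call ended with values scaled by the median of ratios (adjusted p = 0.318) and in 6 other alternatives, among them the fits without amiodarone replicate 2 or 3 and without control replicate 1 or 2 (adjusted p = 0.0542 to 0.133). UQCRQ, a small subunit next to the coenzyme Q site, had 11.3, 10.9 and 11.5 after amiodarone and 13.2, 13.8 and 13.7 in controls (limma, log2 fold change -0.24, SE 0.041, adjusted p = 0.00022); 20.8% of its exonic bases lie opposite GDF9. UQCRH, the hinge protein that helps CYC1 meet cytochrome c, had 273, 281 and 283 after amiodarone and 312, 317 and 301 in controls (limma, log2 fold change -0.15, SE 0.026, adjusted p = 0.000276). UQCR10 and UQCR11, small subunits, averaged 0.87 and 0.915 of the control mean and were also lower.

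The subunit genes that were higher were UQCRB, a small subunit bound to cytochrome b, and UQCRHL. In the annotation used for exon overlaps, UQCRB is 1 exonic block of 9715 bases over its whole gene. If the deposited values rest on such a block, reads from introns would count toward UQCRB. Whether its mature mRNA rose was not tested apart from such reads. UQCRB had values of 15.9, 15.3 and 15.2 after amiodarone, against 14.2, 13.4 and 12.9 in controls (limma, log2 fold change 0.19, SE 0.044, adjusted p = 0.00253), and with values scaled to equal sums the call ended (adjusted p = 0.0566). UQCRHL had values of 10.9, 11.3 and 9.28 after amiodarone, against 2.45, 5.71 and 2.36 in controls (limma, log2 fold change 1.42, SE 0.212, adjusted p = 8.92e-05). The 3 amiodarone libraries were alike, and control replicate 2 stood above the other controls. UQCRHL is an intronless copy on chromosome 1 at 15807169 to 15809348 (minus strand), and reads of UQCRH, which is far more abundant, could be assigned to it, so both values are uncertain. UQCRHL made up 3.62% ± 0.39 of the summed value of the pair after amiodarone and 1.11% ± 0.573 in controls.

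Assembly factors of complex III went both ways. UQCC3, which stabilises newly made cytochrome b, had values of 4.10, 3.84 and 3.27 after amiodarone, against 5.98, 6.18 and 6.58 in controls (limma, log2 fold change -0.62, SE 0.071, adjusted p = 1.23e-05); 29.2% of its exonic bases lie opposite LBHD1. BCS1L, which moves the Rieske protein into the complex, had 14.96, 15.9 and 13.8 after amiodarone and 21.5, 21.8 and 21.3 in controls (limma, log2 fold change -0.51, SE 0.048, adjusted p = 2.44e-06). By contrast UQCC1 and UQCC2, which act together on cytochrome b, were slightly higher. UQCC1 had 35.1, 33.6 and 36.1 after amiodarone and 31.9, 32.00 and 33.1 in controls (limma, adjusted p = 0.0167). UQCC2, whose exons face ITPR3 over 21.9% of their bases, had 16.9, 17.7 and 17.6 after amiodarone and 16.1, 16.6 and 15.2 in controls (limma, adjusted p = 0.0246). Both of these calls ended with values scaled to equal sums (adjusted p = 0.662 and 0.523). The UQCC1 call also ended without amiodarone replicate 3, control replicate 1 or control replicate 2 (adjusted p = 0.0528 to 0.0651), and the UQCC2 call without amiodarone replicate 2, amiodarone replicate 3 or control replicate 3 (adjusted p = 0.064 to 0.112).

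CYCS, the gene of cytochrome c, which carries electrons from complex III to complex IV, fell to 0.785 of the control mean. Its values were 24.2, 25.7 and 25.4 in the amiodarone libraries, against 32.8, 31.5 and 31.7 in the controls, with no overlap (limma, log2 fold change -0.34, SE 0.035, adjusted p = 5.56e-06).

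Of 10 tested subunit genes of complex IV under the name rule, 7 were lower, where 44.8% of all tested genes were. None was higher, 3 were not called, and the log2 fold changes ran from -0.30 to -0.01. COX5A, which lies on the matrix side of the complex, had the lowest, with values of 174, 165 and 163 after amiodarone, against 207, 206 and 204 in controls (limma, log2 fold change -0.30, SE 0.027, adjusted p = 1.8e-06). COX8A, a small membrane subunit, had 250.2, 237 and 254 after amiodarone and 281, 293 and 287 in controls (limma, log2 fold change -0.22, SE 0.03, adjusted p = 4.93e-05); 34.5% of its exonic bases are shared with another annotated gene on the same strand. COX6C, another membrane subunit, had 46.6, 45.3 and 45.03 after amiodarone and 56.6, 51.8 and 51.1 in controls (limma, log2 fold change -0.22, SE 0.039, adjusted p = 0.000417). In all 3 genes each amiodarone library was below each control library.

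COX4I1, an early-assembling subunit that binds ATP, was not called, with 196, 189.9 and 192 after amiodarone and 195, 195 and 194 in controls (limma, log2 fold change -0.01, SE 0.023, adjusted p = 0.615). COX6A1, with 409, 399 and 383 after amiodarone and 405, 399.7 and 398 in controls, and COX7B, with a mean of 142 after amiodarone and 148 in controls, were likewise not called (adjusted p = 0.649 and 0.175, limma). All 3 were called lower with values scaled to equal sums, at log2 fold changes of -0.10, -0.11 and -0.15. COX6B1, which faces the intermembrane space, had 301, 289 and 292 after amiodarone and 309, 313 and 302 in controls. It was called lower at 0.954 of the control mean (limma, adjusted p = 0.0263), a call that ended in 7 alternatives (adjusted p of 0.0535 to 0.347), among them the fits without amiodarone replicate 2 or 3 and without control replicate 1 or 2.

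Isoforms that mark heart and muscle or testis were near 0. COX6A2 and COX7A1, the heart and muscle forms, reached at most 0.43 and 0.24 in any library, and the testis forms COX8C and COX6B2 at most 0.24 and 1.73. COX6A2 lies opposite AC026471.5 over 46.0% of its exonic bases, and COX6B2 shares 30.9% with AC020922.1. None of these 4 passed the filter, and the common forms COX6A1, COX6B1 and COX8A made up at least 99.4% of the summed value with their tissue form in every library. COX7A2 had 133, 129 and 134 after amiodarone and 146, 139 and 139.6 in controls. It was called lower (limma, log2 fold change -0.10, adjusted p = 0.00805), but not with values scaled by the median of ratios (adjusted p = 0.0825). COX7A2L, a relative that ties complexes III and IV into a supercomplex, had 205, 208 and 206 after amiodarone and 195, 201 and 196 in controls. It was called higher (limma, log2 fold change 0.06, adjusted p = 0.0251), the call ended without amiodarone replicate 2, control replicate 1 or control replicate 3 (adjusted p = 0.0819 to 0.083), and scaling to equal sums turned the sign to -0.03.

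Among the 13 assembly factors of complex IV, 4 were lower (30.8%), 3 were higher (23.1%) and 6 were not called. Of all tested genes, 44.8% were lower and 33.5% higher. The summed value of the 13 factors was 383 ± 2.21 after amiodarone and 384 ± 10.3 (SD, n = 3 each) in controls. COX7A2L made up more of that sum than the other factors together, and without it the sum was 177 ± 2.9 after amiodarone and 187 ± 7.25 (SD, n = 3 each) in controls. COX10, which makes heme o on the way to heme a, had 7.31, 8.50 and 7.45 after amiodarone, against 5.56, 6.03 and 5.48 in controls (limma, log2 fold change 0.39, SE 0.063, adjusted p = 0.000181). COX18, which inserts part of the mitochondrially encoded subunit 2 into the membrane, had 10.4, 10.6 and 9.67 after amiodarone, against 6.07, 8.06 and 7.19 in controls (limma, log2 fold change 0.48, SE 0.08, adjusted p = 0.000226). COX15, the next enzyme on the way to heme a, was not called (adjusted p = 0.241, limma), at 10.97, 10.9 and 10.6 after amiodarone and 11.1, 12.5 and 10.8 in controls; 25.6% of its exonic bases are shared with a gene on the same strand.

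COX20 and COX16, which accompany subunit 2 as it matures, were lower. COX20 had 21.1, 19.98 and 19.6 after amiodarone, against 28.9, 28.1 and 26.96 in controls (limma, log2 fold change -0.45, SE 0.04, adjusted p = 1.49e-06), but 72.0% of its exonic bases lie opposite HNRNPU. COX16 had 6.79, 5.92 and 5.89 after amiodarone, against 9.28, 8.99 and 8.89 in controls (limma, log2 fold change -0.48, SE 0.057, adjusted p = 1.5e-05), and 36.0% of its exonic bases are shared with the readthrough gene SYNJ2BP-COX16. SURF1, an early factor tied to heme a insertion, had 9.01, 8.56 and 10.1 after amiodarone and 10.1, 11.9 and 10.9 in controls, and was lower (limma, log2 fold change -0.23, SE 0.068, adjusted p = 0.0105), although amiodarone replicate 3 lay just above control replicate 1.

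Of the 5 copper carriers COX11, COX17, COX19, SCO1 and SCO2, 1 was called, where 78.3% of all tested genes were. These carriers are too few to read against that share. SCO1, which hands copper to subunit 2, had 6.47, 6.30 and 5.85 after amiodarone, against 6.94, 7.40 and 7.89 in controls (limma, log2 fold change -0.22, SE 0.058, adjusted p = 0.00475). Its relative SCO2 had 14.7, 13.6 and 16.1 after amiodarone and 14.7, 15.4 and 15.2 in controls and was not called (adjusted p = 0.663, limma). SCO2 shares 71.7% of its exonic bases with a second annotated SCO2 gene, and 41.7% lie opposite U62317.2. COX17, which brings copper to the SCO proteins, had 49.9, 45.9 and 44.8 after amiodarone and 44.7, 50.5 and 45.2 in controls and was not called (adjusted p = 0.971, limma). COX17 shares 17.6% of its exonic bases with POPDC2, and COX19 21.4% with ADAP1. COX11 and COX19 were not called at adjusted p of 0.335 and 0.129 (limma). Without amiodarone replicate 2, COX11 was called lower (log2 fold change -0.158, adjusted p = 0.0235), and with values scaled by the median of ratios COX19 was called higher (log2 fold change 0.13, adjusted p = 0.0428).

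Among subunit genes of ATP synthase, 13 of 17 tested were lower (76.5%), where 44.8% of all tested genes were. Of the rest, 1 was higher and 3 were not called. The median log2 fold change of the 17 genes was -0.25. The catalytic beta subunit gene ATP5F1B had values of 285, 287 and 293 after amiodarone, against 417, 408 and 409 in controls, 0.701 of the control mean (limma, log2 fold change -0.51, SE 0.022, adjusted p = 4.35e-09). Its partner in the F1 head, the alpha subunit gene ATP5F1A, had 78.7, 80.2 and 80.8 after amiodarone and 94.5, 95.95 and 91.3 in controls, 0.851 of the control mean (limma, log2 fold change -0.23, SE 0.028, adjusted p = 1.69e-05). In both genes each amiodarone library was below each control library. The difference between the 2 changes was not tested.

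The central stalk of F1, which turns inside the head, split in direction. ATP5F1C and ATP5F1D, its gamma and delta subunit genes, averaged 0.871 and 0.726 of the control mean and were lower. ATP5F1E, which encodes the small epsilon subunit, was higher, with values of 322, 337 and 322 after amiodarone, against 241, 236 and 234 in controls, 1.38 times the control mean (limma, log2 fold change 0.46, SE 0.025, adjusted p = 2.89e-08). The groups lay far apart, and 23.2% of its exonic bases lie opposite TUBB1. The 4 genes of the peripheral stalk, which keeps the head from turning, were all lower: ATP5PO averaged 0.757 of the control mean, ATP5PF 0.835, ATP5PB 0.838 and ATP5PD 0.842. Exons of ATP5PF lie opposite GABPA over 20.2% of their bases, and ATP5PO shares 19.6% of its exonic bases with AP000311.1.

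The c-ring genes were 2 lower and 1 not called. ATP5MC1, ATP5MC2 and ATP5MC3 encode the same mature c-subunit with different targeting presequences. ATP5MC1 had values of 86.9, 85.4 and 89.3 after amiodarone, against 181, 187 and 179.9 in controls, 0.477 of the control mean and the lowest ratio of the tested members (limma, log2 fold change -1.06, SE 0.027, adjusted p = 9.43e-11). ATP5MC2, with the highest mean value of the members, had 612, 626 and 577 after amiodarone and 565, 664 and 630.5 in controls. Its groups overlapped, and it was not called (limma, log2 fold change -0.03, SE 0.051, adjusted p = 0.571); without control replicate 1, which was the lowest library, it was called lower (log2 fold change -0.10, adjusted p = 0.0352), as it was with values scaled to equal sums (-0.12, adjusted p = 0.0335). ATP5MC3 had 38.7, 39.9 and 38.1 after amiodarone, against 46.6, 48.9 and 45.96 in controls, 0.825 of the control mean (limma, log2 fold change -0.27, SE 0.034, adjusted p = 2.1e-05).

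Shares of the c-subunit transcripts were set against each other. ATP5MC1 made up 11.9% ± 0.674 of the summed value of the 3 genes after amiodarone, against 21.6% ± 1.14 in controls, and ATP5MC2 82.7% ± 0.743 after amiodarone and 72.9% ± 1.41 in controls. For both, the libraries of the groups did not overlap, and a two-sided exact permutation test gave p = 0.1, the smallest that 3 against 3 libraries allow (0.2 after Benjamini-Hochberg adjustment over 16 shares). ATP5MC3 made up 5.32% ± 0.0858 after amiodarone and 5.56% ± 0.278 in controls (exact permutation p = 0.2). The summed value of the 3 genes was 731 ± 24.1 after amiodarone and 850 ± 54 in controls (SD, n = 3 each).

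**Figure D3:**
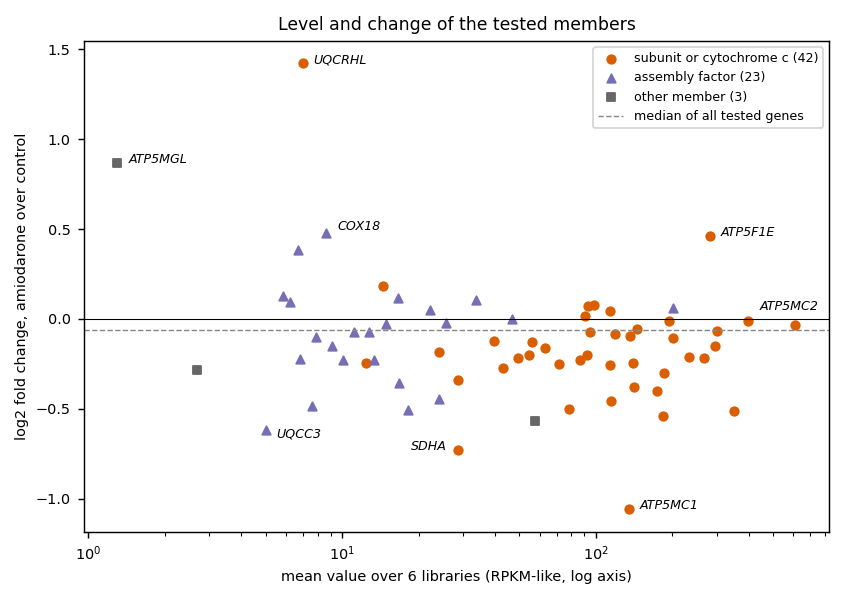
The log2 fold change of amiodarone over control is plotted against the mean RPKM-like value over 6 libraries on a log axis, with 1 point per tested member shaped by role and the median of all tested genes (-0.06) dashed. Abundant subunit genes gather below 0 with ATP5MC1 lowest and ATP5F1E above, while the largest positive changes, of UQCRHL and ATP5MGL, are of low values.

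The small membrane subunits of complex V, most of which lie where the enzyme pairs up, were mixed. ATP5MF, the f subunit gene, had 146, 155 and 149 after amiodarone, against 213, 228 and 216 in controls (limma, log2 fold change -0.54, SE 0.032, adjusted p = 5.1e-08). ATP5MD and ATP5MPL averaged 0.891 and 0.944 of the control mean and were lower, the second not with values scaled by the median of ratios (adjusted p = 0.18), without control replicate 2 (adjusted p = 0.0806) or with eBayes without trend (adjusted p = 0.0678). ATP5MD shares 15.4% of its exonic bases with MIR1307. ATP5ME and ATP5MG, the e and g subunit genes, averaged 1.05 and 1.03 times the control mean and were not called (adjusted p = 0.343 and 0.22, limma), although ATP5MG was called higher with values scaled by the median of ratios (adjusted p = 0.0353), and both had negative signs with values scaled to equal sums (-0.02 and -0.048). ATP5ME lies opposite MYL5 over 61.6% of its exonic bases, and it was called higher without amiodarone replicate 3 (log2 fold change 0.14, adjusted p = 0.0476). Summed over the 17 subunit genes, the value was 2591 ± 33.3 after amiodarone and 2986 ± 73.1 (SD, n = 3 each) in controls, 0.868 of the control sum. That ratio was 0.896 for complex II, 0.888 for complex III and 0.923 for complex IV. Such sums weigh abundant genes most. The most abundant subunit genes of complexes II, IV and V (SDHB, COX6A1 and ATP5MC2) were not called, and that of complex III (UQCRH) was lower. The complexes were not tested against each other.

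ATP5IF1, which inhibits ATP synthase when it runs backwards, had values of 50.99, 46.4 and 41.3 after amiodarone, against 69.2, 72.4 and 64.8 in controls (limma, log2 fold change -0.57, SE 0.065, adjusted p = 1.1e-05). Each amiodarone library was below each control library. ATPAF1, which guards the beta subunit before assembly, had 11.9, 12.2 and 12.5 after amiodarone, against 14.1, 13.99 and 15.4 in controls (limma, log2 fold change -0.23, SE 0.046, adjusted p = 0.000907). ATPAF2, its counterpart for the alpha subunit, averaged 0.921 of the control mean and was not called (adjusted p = 0.196, limma), but was called lower with values scaled to equal sums (adjusted p = 0.0285). ATP5MGL, a copy of ATP5MG, had 1.66, 1.43 and 2.90 after amiodarone and 0.57, 0.61 and 0.64 in controls. Its control libraries were all under the minimum value, so it was tested because of its level after amiodarone and had to differ. The readthrough gene ATP5MF-PTCD1, with 2.49, 2.73 and 1.75 after amiodarone and 2.47, 3.47 and 3.16 in controls, lay just inside the threshold (adjusted p = 0.0497, limma) with overlapping groups. The call ended in 9 alternatives, among them both lower pseudocounts, and the gene shares 83.3% of its exonic bases with PTCD1.

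Other groups of mitochondrial genes were set beside these. Among subunits of complex I, 25 of 37 tested were lower (67.6%) and 3 higher, at a median log2 fold change of -0.21. Among mitochondrial ribosome proteins 50 of 78 were lower (64.1%) and 7 higher, at a median of -0.25. For the subunits of complexes II to V and CYCS the median was -0.19. Of 20 further genes outside the name rule, nearly all assembly and regulatory factors of complexes III to V, 10 were lower and 3 higher. Of all tested genes, 44.8% were lower and 33.5% higher, and the share that was lower lies near that of all genes. NDUFA4, counted among the lower ones, encodes a subunit of complex IV and not a factor. The lower ones include TMEM70, a complex V factor (5.39 ± 0.27 after amiodarone and 8.46 ± 0.265 in controls), and COA3, a complex IV factor (25.9 ± 0.476 after amiodarone and 38.9 ± 3.38 in controls). FMC1, which acts with ATPAF2 in yeast, was higher (9.01 ± 1.0 after amiodarone and 5.06 ± 0.647 in controls).

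**Figure D4:**
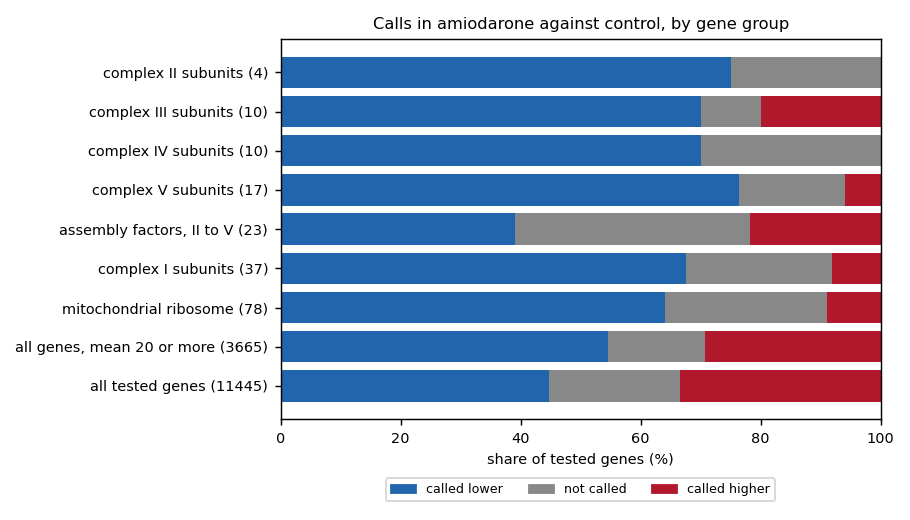
For each gene group, the share of tested genes called lower, not called and called higher after amiodarone is drawn as a stacked bar from 0 to 100%, with the number tested in parentheses. Subunit genes of complexes II to V have 70.0% to 76.5% called lower, against 39.1% of assembly factors and 67.6% of complex I subunits. Of mitochondrial ribosome genes 64.1% are called lower. The share is 44.8% over all tested genes and 54.6% over those with a mean value of 20 or more.

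Of 13 genes of coenzyme Q synthesis, 7 were lower (53.8%) and 3 higher (23.1%), where 44.8% of all tested genes were lower and 33.5% higher. COQ8A, an atypical kinase of the synthesis complex, averaged 23.8 ± 0.387 after amiodarone and 45.5 ± 0.725 in controls, and COQ4, another member of that complex, 11.3 ± 0.319 after amiodarone and 20.5 ± 0.576 in controls. COQ10B, a coenzyme Q chaperone, was higher, at 15.8 ± 0.92 after amiodarone and 7.54 ± 0.2 in controls. Of 6 tested genes of other routes into coenzyme Q, 3 were higher and 3 lower, too few to read against those shares. ETFDH, GPD2 and SQOR were higher, and DHODH, ETFA and ETFB were lower. ETFA and ETFB do not encode dehydrogenases but the flavoprotein that hands electrons to ETFDH. GPD2, the glycerol phosphate dehydrogenase, averaged 9.75 ± 0.747 after amiodarone and 5.45 ± 0.0945 in controls, and DHODH, of pyrimidine synthesis, 5.58 ± 0.435 after amiodarone and 8.33 ± 0.0874 in controls. Of 9 tested regulators of respiratory genes, 6 were lower (66.7%) and 2 higher (22.2%), where 44.8% of all tested genes were lower and 33.5% higher. These 9 genes are also too few to read against those shares. PPRC1, a coactivator of the PGC-1 family, averaged 14.9 ± 0.125 after amiodarone and 30.2 ± 1.15 in controls, TFAM, which packages mitochondrial DNA, 14.5 ± 0.912 after amiodarone and 23.4 ± 1.15 in controls, and NRF1 3.97 ± 0.225 after amiodarone and 6.38 ± 0.349 in controls. GABPA, a subunit of the ETS factor GABP, was higher at 9.01 ± 0.345 after amiodarone and 7.77 ± 0.289 in controls. YY1 was lower, at 21.3 ± 0.855 after amiodarone and 24.4 ± 0.155 in controls.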

How the data were processed

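RNA of 3 HL-60 libraries given 10 uM amiodarone for 24 h and 3 control libraries was sequenced; per the labels' protocols, the mRNA kit keeps the strand. Tools in the submitters' processing notes are STAR 2.5.3a, fastp 0.23.4 and featureCounts, and the build is GRCh38.p12, without role or order. The annotation and the strand setting were not given in the sources used here. The deposited table of 17911 genes states no unit. Its values behave like RPKM made by the authors, and RPKM, FPKM and TPM could not be told apart with certainty; if RPKM, the smallest values of short genes allow only a rough depth, so depth is taken as unknown and no count test was run. In 26 rows a symbol stored as a date was put back by gene ID.

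Values were tested with limma 3.58.1 in R 4.3.3 (eBayes with trend) on log2(value + 1), for genes at 1 or more in at least 3 libraries. Benjamini-Hochberg adjustment was made over all 11445 tested genes, with a threshold of 0.05. The fit was also run on simulated data in which few genes changed. Most genes were called in the data used here, so that run does not test these calls. A pseudocount of 1 understates the change of low genes. Ratios of means are of the deposited values. Isoform shares were compared with exact permutation tests. Exon overlaps (reported from 15%) come from GENCODE 29 and promoter windows from RefSeq (GRCh38.p14). Values in every library are given for complex II, CYCS, the called members with the 3 largest changes each way per complex and role, isoform families, the members nearest the threshold and the most abundant member; some further members were named after their values were seen. Members and lists were chosen with earlier results of these data known. Alternatives were 2 scalings, 2 pseudocounts, 2 filters, eBayes without trend, a replicate block and leaving out each library.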

Additional observations from a re-analysis of the deposited data

How the results depend on the processing

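Of 51 called members, 42 kept their call in every alternative that gave a value, and 9 lost it or changed sign in at least 1: ATP5MF-PTCD1, ATP5MPL, COX6B1, COX7A2, COX7A2L, UQCC1, UQCC2, UQCRB and UQCRFS1. Of 17 members not called, 13 were called in at least 1. Scaling to equal sums moved the median of all tested genes by -0.084 (log2) and left 5 members called higher; the median of ratios moved it by 0.034. With equal sums SDHB was at -0.074 and COX7A2L at -0.028, both with the sign turned. The median log2 fold change of subunits was -0.28 with equal sums, -0.153 with the median of ratios, -0.156 with no filter, and -0.193 to -0.17 without single libraries. That of assembly factors was -0.155 with equal sums, -0.035 with the median of ratios and -0.09 to -0.015 without single libraries, the last without control replicate 2. Without amiodarone replicate 2, 6 members were called higher. A scaling shifts every gene of a library by construction. The setting with no filter adds the tissue isoforms COX6A2, COX6B2, COX7A1 and COX8C to the subunits. It leaves single fold changes as they were, as for SDHA at -0.728. For the other settings the cause was not tested.

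Samples of the 2 groups share only a replicate number: deviations of same-numbered libraries correlated at -0.155, -0.018 and -0.023. With the replicate block, 48 members were called (8 higher, 40 lower) and 8770 genes in all; UQCRFS1, COX6B1 and COX7A2L lost their call. Exact tests of shares could not go below 0.1 at 3 against 3 libraries.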
